A study of Homo sapiens with 4 samples.

Results

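The NRF2 pathway genes NFE2L2, KEAP1, NQO1, HMOX1, GCLC, GCLM, SLC7A11, TXNRD1, SRXN1 and AKR1B10 were examined for RNAPII-linked DNA loops in HepG2 cells, a human hepatocellular carcinoma cell line. A loop was assigned to a gene when at least 1 anchor overlapped the gene body of GENCODE 44 (GRCh38) or the 20 kb on either side, called the gene window here. By this rule, 141 of the 77862 distinct loops of the study belonged to the 10 genes, 126 of them listed in mock-treated and 28 in PDS-treated cells. The data are POLR2A HiChIP-seq, in which fixed chromatin is cut with MboI, ligated in place and then immunoprecipitated with an antibody to POLR2A, the largest subunit of RNAPII. Cells received water (mock) or 20 µM pyridostatin (PDS), a small-molecule ligand of G-quadruplex (G4) structures, for 24 h. Each condition had 2 replicate libraries of this 1 cell line, and the deposited lists hold 1 combined table of loops per condition.

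Each loop carries a count of paired-end tags (PETs), read pairs that join its 2 anchors. The mock list holds 66417 loops (254647 PETs) and the PDS list 18778 (67001 PETs), so the PDS/mock ratio is 0.283 for loops and 0.263 for PETs over the whole genome. The library depths were not used here, because they were not given with the lists. A lower number of listed PETs can come from fewer contacts, less RNAPII on the chromatin or shallower sequencing, and these cannot be told apart. Neither list holds a loop under 3 PETs, so a loop absent from a list can still have up to 2 PETs. No spread between replicates can be measured from 1 table per condition, and no test was made. The 95% intervals below are Wilson intervals, and they cover counting error only. For PET ratios they treat each PET as independent. PETs enter the lists in loops of at least 3, so these intervals are too narrow even for counting error. Of 8 hepatocyte marker genes, such as ALB and APOA1, 8 had mock loops in their windows (5 to 45). Of 6 markers of other cell types, 4 also had loops there, so a window with loops does not by itself identify a cell type.

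NRF2, the product of NFE2L2, is a transcription factor that switches on defences against oxidants and electrophiles. In unstressed cells KEAP1 captures NRF2 and passes it to a CUL3 ubiquitin ligase for degradation. When reactive compounds modify KEAP1, NRF2 accumulates, pairs with a small MAF protein and binds antioxidant response elements (AREs) near its target genes. Its targets make glutathione (GCLC, GCLM, and SLC7A11 through cystine import), reduce quinones and break down haem (NQO1, HMOX1), restore oxidised thiols (TXNRD1, SRXN1) and reduce carbonyls (AKR1B10). Hepatocytes use this programme to handle drugs and dietary toxins. The AKR1C genes, which the study examined closely, belong to the same programme.

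Sequences of the ARE core TGACNNNGC were searched on both strands of all anchors, since they show where NRF2 could bind within the looped DNA. The following sites lie in anchors of loops that touch a member's promoter, and each is given with its distance in bp from the start site of the gene's representative (MANE) transcript. Negative distances are upstream, capitals mark the ARE core, and the strand shown is the strand on which the core reads.
NQO1 at -451 bp, chr16:69727007-69727015, minus strand, exon of the divergent transcript NQO1-DT: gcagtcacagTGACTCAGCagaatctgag
GCLM at -30 bp, chr1:93909456-93909464, plus strand, first base in an exon of another GCLM transcript: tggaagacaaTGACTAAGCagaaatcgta
GCLC at -3107 bp, chr6:53548204-53548212, plus strand, exon of another GCLC transcript: ccccgccacgTGACTGCGCgggcccgcct
GCLC at -3152 bp, chr6:53548249-53548257, plus strand, intron of longer GCLC transcripts: cgcctccccgTGACTCAGCgctttgtgcg
HMOX1 at -3936 bp, chr22:35377156-35377164, minus strand, exon of a non-HMOX1 transcript: gaggcactggTGACTCAGCaaaatctagc
HMOX1 at -8986 bp, chr22:35372106-35372114, minus strand, intergenic: ctctagaccgTGACTCAGCgaaaacagac
HMOX1 at -9015 bp, chr22:35372077-35372085, minus strand, intergenic: accgggaccgTGACTCAGCgaaaacagat
HMOX1 at -9044 bp, chr22:35372048-35372056, minus strand, intergenic: ctcggggcggTGACTTAGCgaaaatagac
HMOX1 at -9073 bp, chr22:35372019-35372027, minus strand, intergenic: ctcgggaccgTGACTCAGCaggaaaaaca
NFE2L2 at 650 bp, chr2:177264073-177264081, plus strand, exon of another NFE2L2 transcript: agcggccccgTGACTAGGCacatttttgc
SRXN1 at 610 bp, chr20:652586-652594, minus strand, SRXN1 intron: gcttaaaaagTGACACGGCtggaattcac
The site at -3152 bp of GCLC and the HMOX1 sites were chosen after their letters had been seen, because they hold or neighbour the stricter core TGACTCAGC. The others are among the 3 nearest to the start site. The HMOX1 cluster repeats a near-identical unit 4 times, with the same spacing of cores on the same strand.

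A G4 motif was taken as 4 or more runs of 3 or more G, separated by 1 to 7 bases, on the plus or the minus strand. Those shown are examples from anchors of the same promoter loops, since PDS binds folded G4 structures. The G-rich strand is printed with the whole motif in capitals. Other motifs near a start site are not shown, such as those at GCLM (-100, 226 and 487 bp) and NQO1 (-226 bp).
NFE2L2 at 244 bp, chr2:177264472-177264495, minus strand: GGGACGGGGGCGGGGGAGCTAGGG
HMOX1 at -111 bp, chr22:35380971-35380999, plus strand: GGGGCGGGCTGGGCGCGGGCCCCTGCGGG
SRXN1 at -301 bp, chr20:653492-653510, plus strand: GGGGCGGGAGGGGCGCGGG
GCLC at -2404 bp, chr6:53547494-53547516, minus strand: GGGGGGGTAGGATAGGGTGAGGG
A match is a run of letters in the reference genome. Whether it is bound or folded in these cells was not measured here.

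Loops at the 10 genes were fewer and weaker in the PDS list. The 126 mock loops held 524 PETs and the 28 PDS loops 96 PETs, a loop ratio of 0.222 (95% interval 0.148 to 0.334) and a PET ratio of 0.183 (0.147 to 0.228). If every mock loop missing from the PDS list had the 2 PETs that the list minimum allows, the PDS sum would be 322 PETs. Of the 10 genes, 9 had fewer PDS than mock loops, against 94% of the protein-coding genes with a mock loop. PDS PETs were at least 2-fold lower at 9 of the 10, against 89.1% of such genes. HMOX1 and AKR1B10 had no PDS loop at all, and the same was true of 35% of such genes. These counts are close to what the whole gene set shows.

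**Figure D1:**
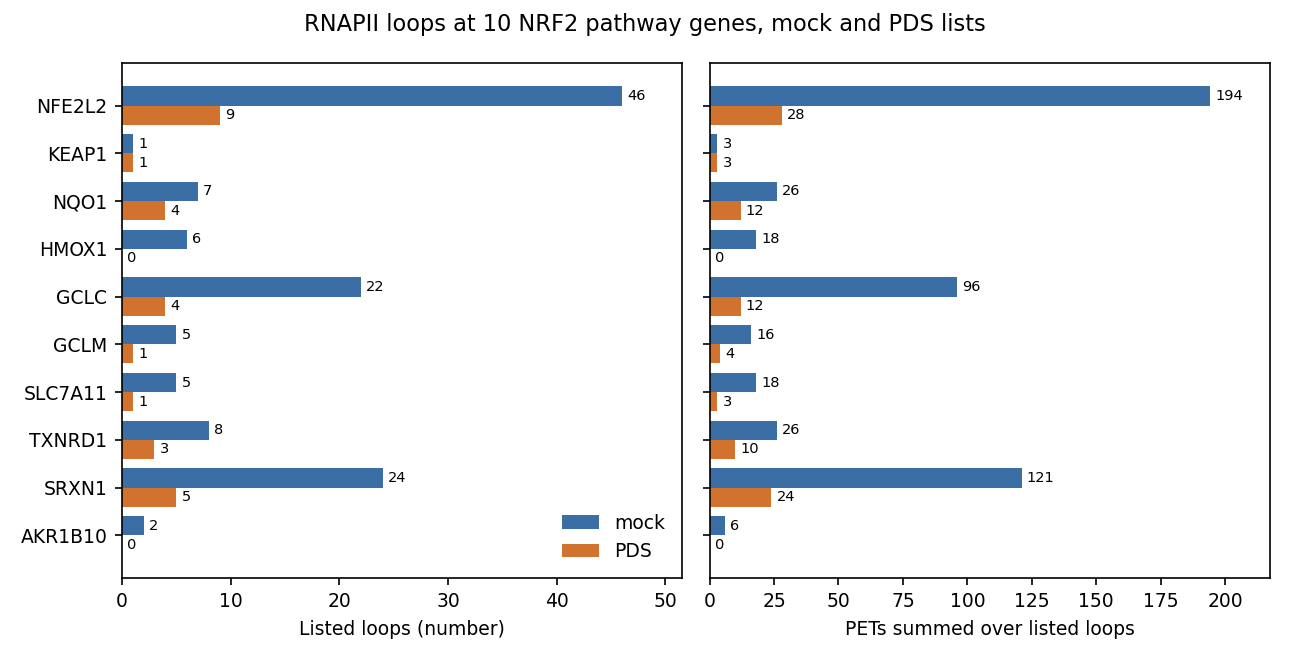
Number of listed loops (left) and summed PETs (right) in the window of each of the 10 genes, mock in blue and PDS in orange, 1 combined list per condition and so no error bars. NFE2L2, SRXN1 and GCLC hold most of the mock loops (46, 24 and 22), and only KEAP1, with 1 loop of 3 PETs in each list, has equal bars.

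The mock loops were unevenly spread over the pathway. NFE2L2, SRXN1 and GCLC held 92 mock loops with 411 PETs, and the other 7 genes 34 mock loops with 113 PETs. Of all 19970 protein-coding genes 81.1% had a mock loop in the window, as had all 10 members. Only 3.99% of the 19970 protein-coding genes had 20 or more mock loops in their windows, and these 3 genes were among them. At the 3 genes the PDS list held 18 loops with 64 PETs, a PET ratio of 0.156 (0.120 to 0.202). The other 7 had 10 PDS loops with 32 PETs, a PET ratio of 0.283 (0.192 to 0.418). The 3 genes were set apart by their mock loops, and mock PETs are the denominator of the ratio. This choice favours a lower ratio at the 3, so the difference between the groups is not a result about these genes. Over the 797 genes with 20 or more mock loops, the median PET ratio was 0.234, the middle range (quartiles) ran from 0.170 to 0.315, and 37.9% were at least 5-fold lower. NFE2L2 (0.144), GCLC (0.125) and SRXN1 (0.198) all lay in that 37.9%, and NFE2L2 and GCLC also lay below the lower quartile. Window length differs between genes: per 100 kb of window, SRXN1 had 51.5 mock loops, against a median of 9.46 for the 10 genes and 4.50 for all protein-coding genes.

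**Figure D2:**
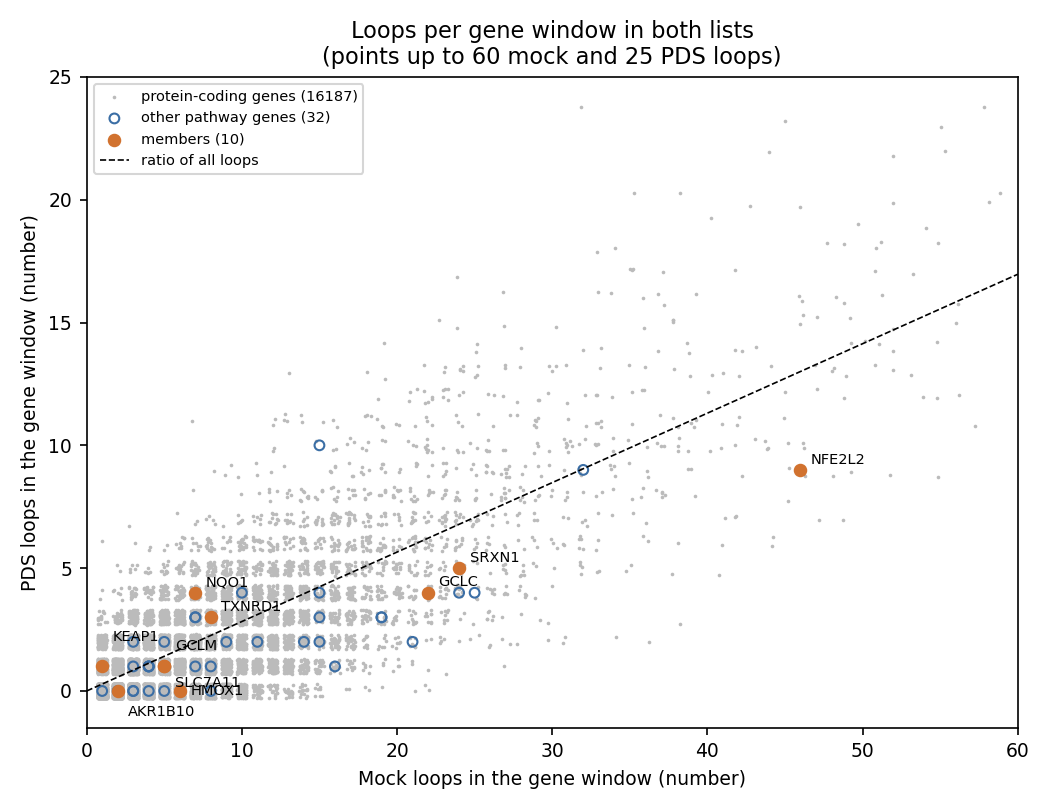
PDS loops against mock loops in the window of each protein-coding gene with a mock loop (grey, jittered by up to 0.3), the other pathway genes (open circles) and the 10 members (filled), with axes ending at 60 mock and 25 PDS loops. The dashed line is the ratio of all loops, 0.283: NFE2L2 (46 mock, 9 PDS), SRXN1 (24, 5) and GCLC (22, 4) lie under it, whereas NQO1 (7, 4), TXNRD1 (8, 3) and KEAP1 (1, 1) lie above it.

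The regulators differed widely in their number of loops. NFE2L2, on the minus strand at chr2:177218667-177392756, had 46 mock loops (194 PETs) against 9 after PDS (28 PETs), a PET ratio of 0.144 (0.0974 to 0.214). On its own chromosome the loop ratio was 0.310, and that of the NFE2L2 window was 0.196 (0.0972 to 0.394). The promoter anchor of the representative transcript, chr2:177261620-177267201, took part in 3 mock loops and in no PDS loop. These loops had 3 PETs to an anchor inside the gene (chr2:177250154-177258723), 4 PETs to an upstream anchor (chr2:177299050-177307469) and 3 PETs to the promoter of PDE11A, a phosphodiesterase gene, 427 kb away. The motifs shown above at 244 bp and 650 bp both lie in this anchor.

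The busiest anchors of NFE2L2 lay away from its main promoter. The anchor inside the gene at chr2:177250154-177258723 had 9 mock loops (39 PETs) against 1 after PDS (3 PETs). The anchor chr2:177401784-177417724, in the body of the neighbour AGPS (a peroxisomal enzyme of ether lipid synthesis), had 8 mock loops (39 PETs) against 2 after PDS (6 PETs). The strongest mock loops of the window had 8 PETs each. Both joined the promoter anchor of HNRNPA3, an RNA-binding protein gene next to NFE2L2 (chr2:177208531-177214355), to an adjoining anchor, at chr2:177197426-177203976 on 1 side and chr2:177216688-177227384 on the other. Neither was in the PDS list. Of the 6 loops listed in both conditions at NFE2L2, 1 had more PETs after PDS: it joined chr2:177161274-177169384 to chr2:177329227-177339653 with 3 mock and 4 PDS PETs. In 1 anchor of another shared loop (5 mock and 3 PDS PETs), chr2:177366529-177374895, 52.5% of the 31-base sequences have further copies in the genome, so its reads are less certain to belong there.

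KEAP1, the sensor that holds NRF2 in check, had a single loop in its window (gene at chr19:10486125-10503558). It joined chr19:10463153-10466731 to chr19:10469129-10473860 with 3 PETs in each list, at the list minimum. Both anchors lie in the body of PDE4A, a neighbouring phosphodiesterase gene, so this loop says nothing of the KEAP1 promoter, which had no loop in either list. Repeated 31-base sequences made up 48.4% and 32.4% of the 2 anchors. NFE2L2 and KEAP1 thus stood at opposite ends of the 10 genes in their number of mock loops, 46 and 1. Their windows differ in length, 214 and 57.4 kb. Per 100 kb of window they had 21.5 and 1.74 mock loops, and SRXN1 had the most, 51.5.

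**Figure D3:**
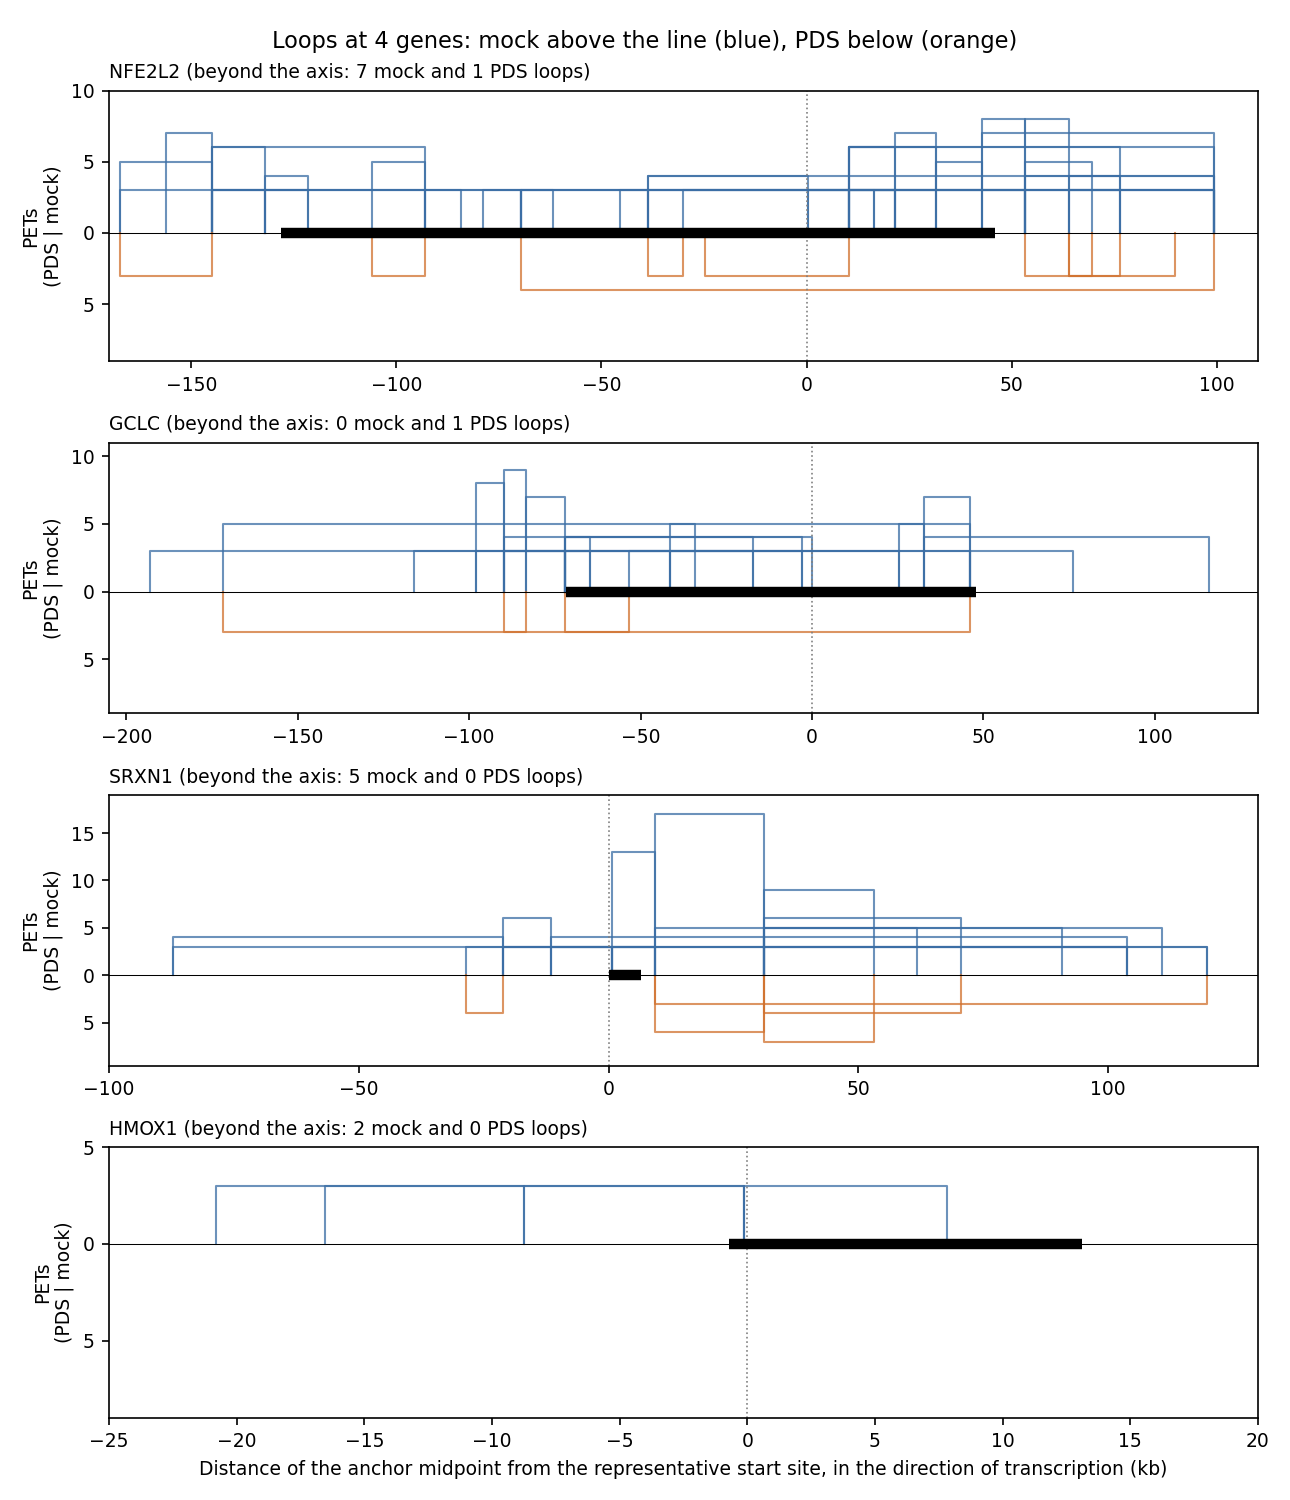
Loops at NFE2L2, GCLC, SRXN1 and HMOX1 by distance of the anchor midpoints from the representative start site (dotted line, kb, positive in the direction of transcription), drawn as brackets whose height is the PET count, mock upwards in blue and PDS downwards in orange, with the gene body as a black bar. Brackets that start at the dotted line are mock loops in all 4 genes, and HMOX1 has no PDS bracket.

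The quinone and haem enzymes had few loops. NQO1, a quinone reductase and a standard readout of NRF2 activity, lies at chr16:69706996-69726668 on the minus strand and had 7 mock loops (26 PETs) against 4 after PDS (12 PETs), none of them in both lists. Its PET ratio was 0.462 (0.236 to 0.903) with the 20 kb flanks, 0.231 with the gene body alone, 0.238 with 50 kb flanks and 0 with at least 4 PETs per loop, so it lay above or below the 0.263 of all loops depending on the setting. In mock-treated cells the promoter anchor chr16:69722991-69727763, which holds the ARE at -451 bp, was joined with 4 PETs to the far end of the gene (chr16:69706361-69710822) and with 3 PETs to chr16:69545474-69558552, 173 kb away. Neither loop was in the PDS list. After PDS the same promoter anchor was joined with 3 PETs to chr16:69735441-69739883, upstream of the gene, in an anchor where 38.7% of 31-base sequences are repeated. Over the 127 member anchors this share had a median of 11.5% and ran from 0 to 52.5%. It was as high in some anchors of loops found only in mock: 39.7% at chr16:69730966-69732485, 39.0% at the HMOX1 promoter partner chr22:35363703-35365399 and 35.4% at the GCLM promoter partner chr1:93923781-93933602. The strongest mock loop of the window, with 6 PETs, ran from the promoter anchor of NFAT5, an osmotic stress factor, to the far end of NQO1. It was not in the PDS list, where the NFAT5 anchor had instead a pair of loops of 3 PETs each over 207 and 245 kb.

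HMOX1, which opens the haem ring and is the classic inducible NRF2 target, lies at chr22:35380361-35394214 and had 6 mock loops of 3 PETs each and no PDS loop. The list minimum would allow up to 12 PETs in the PDS sample at these 6 loops, against 18 in mock. The promoter anchor chr22:35376107-35385860 had 3 of the mock loops. The partner chr22:35369942-35374762, spans -11.2 to -6.33 kb from the start site and carries the cluster of 4 ARE cores between -8986 and -9073 bp. The promoter anchor itself holds the ARE at -3936 bp, so the upstream AREs shown above lay in the anchors of this mock loop of 8.63 kb. These anchors hold other upstream TGACNNNGC cores, at -1327, -4000, -7111 and -9497 bp. Such a core occurs in 82.4% of all anchors. The other partners were chr22:35363703-35365399 and chr22:35386495-35391350. All 6 loops had the same count, so none was strongest, and 2 of them touched the promoters of MCM5, a DNA replication helicase subunit, and APOL2, an apolipoprotein L gene 877 kb away.

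The glutathione genes held 32 mock loops (130 PETs) against 6 after PDS (19 PETs), mostly at GCLC. GCLC, the catalytic subunit of the rate-limiting enzyme of glutathione synthesis, lies at chr6:53497341-53616970 on the minus strand and had 22 mock loops (96 PETs) against 4 after PDS (12 PETs). Its PET ratio was 0.125 (0.0692 to 0.226). It was 0.114 with the gene body alone, 0.241 with 50 kb flanks and 0 with at least 4 PETs per loop. The representative promoter anchor chr6:53544150-53546004 had 1 mock loop of 4 PETs, to chr6:53613438-53620765 at the far-upstream start site of longer GCLC transcripts, and no PDS loop. That upstream anchor was the busiest of the gene, with 8 mock loops and 31 PETs, and 1 PDS loop of 3 PETs. A TGACTCAGC core at -70957 bp lies in it, at chr6:53616054-53616062 in a GCLC intron.

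The GCLC anchor chr6:53546982-53549153 holds the ARE cores at -3107 and -3152 bp and the G4 motif at -2404 bp. It had a pair of mock loops, of 3 PETs to chr6:53595493-53601522 and 4 PETs to chr6:53631487-53638376, and none in the PDS list. The strongest mock loop, between chr6:53626111-53630744 and chr6:53631487-53638376 upstream of the gene, had 9 PETs in mock and 3 in PDS. The other shared loop ran 218 kb from the 3′ end of the gene with 5 mock and 3 PDS PETs. A mock loop of 3 PETs joined this 3′ anchor to the promoter of KLHL31, a muscle-associated kelch protein gene, and was not in the PDS list.

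GCLM, the modifier subunit that helps GCLC work efficiently, had 5 mock loops (16 PETs) against 1 after PDS (4 PETs). Its promoter anchor chr1:93906820-93911255, with the ARE at -30 bp, had 1 mock loop of 3 PETs to chr1:93923781-93933602 and no PDS loop. The PDS loop joined the promoter anchor of the neighbour DNTTIP2, a nucleolar protein gene, to a region 43.8 kb away. SLC7A11, the cystine carrier that supplies cysteine for glutathione, had 5 mock loops (18 PETs) against 1 after PDS (3 PETs). Its promoter anchor chr4:138238213-138244899 had mock loops of 4 PETs to chr4:138213353-138218996 and 3 PETs to chr4:138228551-138231517, both inside the gene and both absent from the PDS list. No ARE core was found in these 3 anchors.

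Among the thiol and carbonyl reductases, SRXN1 had the most loops. SRXN1, which restores over-oxidised peroxiredoxins, is a short gene at chr20:646615-653200 on the minus strand, and its window had 24 mock loops (121 PETs) against 5 after PDS (24 PETs). The promoter anchor chr20:649859-655126 had 5 mock loops with 25 PETs and no PDS loop. Of these PETs, 13 belonged to 1 loop to the anchor at the 3′ end of the gene, chr20:639949-647706. Over the whole mock list 177 loops had 13 or more PETs, and 37 of them (20.9%, 15.6 to 27.5%) were missing from the PDS list. The other 4 promoter loops had 3 PETs each, and 1 of them reached an anchor in the body of CSNK2A1, the catalytic subunit of casein kinase 2, 119 kb away.

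Loops that ended in the anchor next to SRXN1 were in part listed after PDS. The strongest mock loop at any of the 10 genes, with 17 PETs, ran from the 3′ anchor of SRXN1 to chr20:605539-638545, a wide anchor of 33007 bp that holds the promoter of TCF15, a mesoderm transcription factor gene. It had 6 PETs in the PDS list. From the same TCF15 anchor, a loop to chr20:595479-604747 had 9 mock and 7 PDS PETs, and a loop to chr20:579490-585843 had 6 mock and 4 PDS PETs. In total the TCF15 anchor had 11 mock loops (64 PETs) against 3 after PDS (17 PETs). All 3 loops shared between the lists at SRXN1 thus ended in the TCF15 anchor, and none ended in the SRXN1 promoter anchor.

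TXNRD1, a selenoenzyme that reduces thioredoxin, lies at chr12:104215779-104350307 and had 8 mock loops (26 PETs) against 3 after PDS (10 PETs). Loops at 2 of its alternative promoters, of 3 mock PETs each, were not in the PDS list. The loop in both lists, between chr12:104296682-104300850 and chr12:104305107-104325649 inside the gene, had 4 mock and 3 PDS PETs. The other PDS loops were long, 394 and 720 kb. AKR1B10, an aldo-keto reductase often raised in liver cancer, lies at chr7:134527567-134541412 and had 2 mock loops of 3 PETs each and no PDS loop. Both started from chr7:134509434-134522457 upstream of the gene, and 1 ended within the gene body, 16.0 kb away. Its promoter had no loop in either list.

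Promoter loops were few but nearly all in the mock list. With every annotated start site counted (within 1 kb), member promoters had 49 mock loops (191 PETs) against 7 after PDS (22 PETs), a loop ratio of 0.143 (0.0660 to 0.309). NFE2L2 and GCLC, with 65 and 14 annotated transcripts, each held 17 of these mock loops and 3 of the PDS loops. The value thus rests mostly on these 2 genes, and only 3 and 1 of their mock loops touched the representative promoter. Loops at any protein-coding promoter had a loop ratio of 0.254, which lies within the interval of 0.0660 to 0.309. Member loops away from member promoters had a loop ratio of 0.273 (0.169 to 0.440), and the 2 member intervals overlap. The PET ratio was 0.115 (0.0743 to 0.178) at member promoters and 0.228 at any protein-coding promoter, which lies above that interval. As stated above, PET intervals are too narrow. With the representative start site alone, a definition added after the data had been seen, there were 17 mock loops (65 PETs) against 1 after PDS (3 PETs), at NQO1. That loop ratio was 0.0588 (0.00997 to 0.347), and the interval includes the 0.227 found over all representative promoters. The PET ratio there was 0.0462 (0.0153 to 0.139, again too narrow), and the 0.201 over all representative promoters lies above this interval. Mock loops were present at the representative promoters of 7 of the 10 genes (49.4% of all genes had 1). These were SRXN1 with 5, NFE2L2 and HMOX1 with 3, NQO1 and SLC7A11 with 2, and GCLC and GCLM with 1. Of these 7, 6 had no PDS loop at the promoter (68.3% of all such genes), and none had a promoter loop in both lists (80.7% of all such genes had none).

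Of the 126 mock loops at the 10 genes, 13 were also in the PDS list, a share of 10.3% (6.13 to 16.9%), against 11.0% of all mock loops. Stated the other way, 89% of all mock loops were missing from the PDS list. Among the 13 shared loops, 10 had fewer PETs after PDS, 2 had equal numbers and 1 had more. Of all 7333 loops in both lists, 55.3% had fewer PETs after PDS. How often a mock loop was found again depended on its PETs. Over the genome the share went from 5.97% of loops with 3 mock PETs to 62.6% of loops with 10 or more. At the members it was 3 of 72 loops with 3 PETs, 1 of 19 with 4, 4 of 13 with 5, 2 of 10 with 6, 2 of 10 with 7 to 9, and 1 of 2 with 10 or more. At the genome-wide shares for the same PETs, 17.0 of the 126 would have been shared. Weak loops made up 57.1% of member mock loops (3 PETs each), close to the 59.9% of all mock loops.

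**Figure D4:**
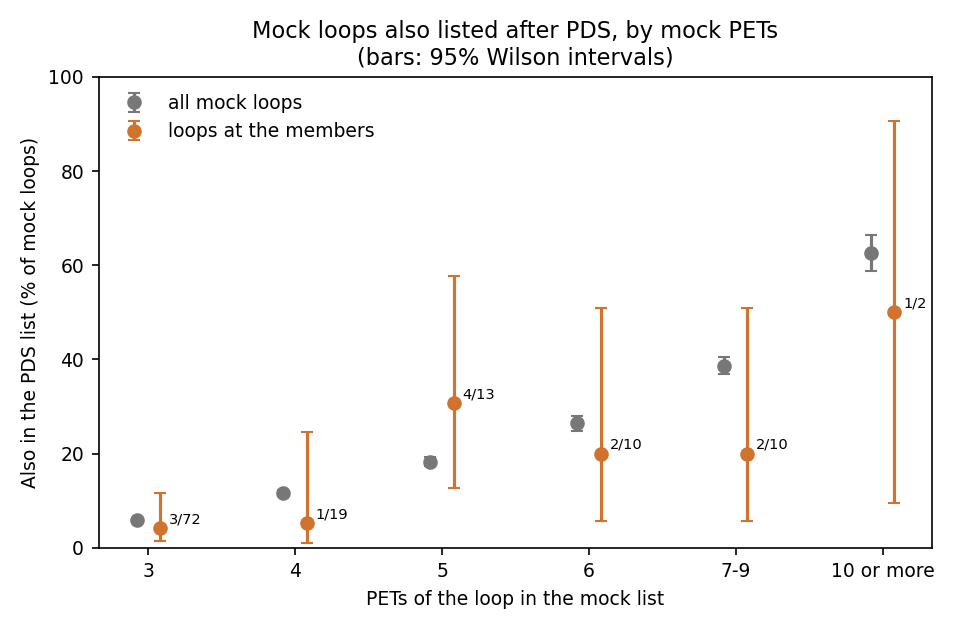
Share of mock loops also listed after PDS, by the PETs of the loop in the mock list, for all loops (grey) and loops at the 10 genes (orange, with counts), bars giving 95% Wilson intervals. The genome-wide share runs from 5.97% to 62.6%, and the member shares, such as 3 of 72 and 2 of 10, have wide intervals that include it at every step.

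The PDS list also held 15 loops at the 10 genes that the mock list did not. Of these, 12 had 3 PETs and 3 had 4, and 79.2% of all loops found only in the PDS list had 3 PETs. NQO1 had 4 of them, NFE2L2 3, GCLC, TXNRD1 and SRXN1 2 each, and GCLM and SLC7A11 1 each. Of the 15, 5 spanned over 200 kb (33.3%, 15.2 to 58.3%), at NQO1, GCLC and TXNRD1, against 8.51% of all loops found only in the PDS list. Long loops were also more frequent among the mock loops of the 10 genes, with 13 of 126 (10.3%) over 200 kb against 5.68% of all mock loops. Several loops at 1 gene share an anchor and are not independent of each other.

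The general ARE core was about as frequent in the anchors of these genes as elsewhere. TGACNNNGC occurred in 82.7% of the 127 member anchors and in 82.4% of all 81742 anchors, since anchors are several kb wide (median 6276 bp at the members). The stricter TGACTCAGC, whose matches also count under TGACNNNGC, occurred in 12.6% of member anchors (7.91 to 19.5%) and 8.81% of all anchors, or 0.231 and 0.140 sites per 10 kb. Of the 10 such sites in anchors of promoter loops, 5 were at HMOX1, 4 at GCLC and 1 at NQO1. G4 motifs occurred in 46.5% of member anchors (38.0 to 55.1%) and 47.3% of all anchors, or 1.52 and 2.08 sites per 10 kb. RefSeq promoter sequences on GRCh38 were matched for 7 of the 10 genes. They run from 250 bases upstream of the start site to a short stretch downstream of it, and their whole length was searched. For NFE2L2 the RefSeq start site lies 596 bp downstream of the representative start site, so its searched window does too. In them TGACNNNGC was found at GCLM and TXNRD1 (14.3% of 15316 promoters), TGACTCAGC at none (0.470%), and a G4 motif at 4 of the 7 (30.7% of all promoters).

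Other genes of the pathway gave a like picture. A list of 33 further genes, with small MAF and CUL3 partners, NADPH enzymes, iron storage, transporters and the AKR1C genes, held 316 mock loops (1220 PETs) against 66 after PDS (228 PETs). Its loop ratio was 0.209 (0.160 to 0.272) and its PET ratio 0.187 (0.162 to 0.215). The values were 0.222 and 0.183 at the 10 members, and 0.283 and 0.263 over all loops. Of the 33, 32 had a mock loop, and all 32 had fewer PDS than mock loops, against 94% of the protein-coding genes with a mock loop. PIR, a nuclear iron-binding protein gene, had no loop in either list. The most mock loops were at the drug exporters ABCC1 (32 mock, 9 PDS) and ABCC3 (25, 4), the NRF2 partner MAFG (24, 4), the peroxiredoxin PRDX1 (21, 2), and AKR1C3 and the growth inhibitor OSGIN1 (19, 3 each). CUL3, the scaffold of the ligase that degrades NRF2, had the most PDS loops of the list, 10 against 15 in mock, with 54 mock and 34 PDS PETs. It was followed by ABCC1 with 9, and by ABCC3, MAFG, AKR1C2 and the exporter ABCC2 with 4 each. Of the 32 genes with a mock loop, 7 had no PDS loop, against 35% of all protein-coding genes with a mock loop. No test of the difference between CUL3 and the other genes could be made from 1 list per condition.

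The shift at the 10 genes was compared with the chromosomes they lie on. Loop ratios of the chromosomes that hold the 10 genes ran from 0.203 to 0.359. At the ratio of its own chromosome for each gene, the 126 mock loops would correspond to 37.8 PDS loops, and 28 were listed. The median PET ratio per gene was 0.183 for the 10 genes and 0.172 for all 16187 protein-coding genes with a mock loop. NFE2L2, GCLC and SRXN1 hold 411 of the 524 mock PETs and so weigh most in the pooled PET ratio of 0.183. Their ratios were below the 0.263 of all loops. So were those of HMOX1 and AKR1B10 (0 each), SLC7A11 (0.167) and GCLM (0.25). Those of NQO1 (0.462), TXNRD1 (0.385) and KEAP1 (1) were above it. All of these values depend on the minimum of 3 PETs in both lists.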

How the data were processed

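POLR2A HiChIP-seq of 4 libraries was used, 2 mock and 2 PDS. The authors aligned the reads to GRCh38 and assigned them to MboI fragments with HiC-Pro 3.1.0 (submitters' processing notes), and deposited counts of PETs per loop, unscaled, in 1 list per condition. The loop caller and the way replicates were joined are not given in the sources used here. Every anchor examined (5000 of 5000) had GATC at both ends. Loops were assigned to genes with GENCODE 44, with at least 1 bp of overlap, and matched between lists by identical anchors. Each PDS/mock ratio has a 95% interval, converted from a Wilson interval for the share of PDS in the sum of both counts. No sample, list or column was left out. Motifs were searched in the GRCh38 genome and in RefSeq promoters, and repeated 31-base sequences were counted in anchors. Genes named were the 10 members, coding genes at the partner of a member's promoter anchor or in its strongest loop, other pathway genes with the most mock or PDS loops or with none, and motif sites at promoter loops. AGPS, PDE4A, CSNK2A1 and DNTTIP2, and some ARE sites, were named after their values were seen. The members, gene lists and alternatives were chosen with earlier results of these data known. Of 34 other pathway genes listed, 1 is not annotated as protein-coding and was not counted. The sequence of 1 motif is not reported here. The code for gene windows, start sites, shared loops, PET sums and ratio intervals was tested on simulated data. The motif search and the merging of the lists were not tested in this way. Software was scipy 1.17.1, pysam 0.24.0, pandas 2.3.3, samtools 1.23.1 and matplotlib 3.10.9 under Python 3.11.15. Alternatives covered the PET minimum, the gene window, start sites, anchor matching, scaling and motif definitions.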

Additional observations from a re-analysis of the deposited data

How the results depend on the processing

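Under every alternative run, the PDS/mock ratios over the members together and over the other pathway genes stayed below 1. The loop ratio of the whole lists was itself 0.283, so this does not set these genes apart. With at least 4 PETs per loop, the member loop ratio was 0.130, the PET ratio 0.107, the shared share 5.56%, the promoter loop ratio 0.0556 and the loop ratio of the other pathway genes 0.158. With at least 5 PETs these were 0.0571, 0.0560, 5.71%, 0 and 0.0923, and 4 members had mock loops but no PDS loop. Over all loops the loop ratio was 0.204 and 0.149 at these minimums. With the gene body alone the PET ratio was 0.139 and the shared share 6.02%, with both anchors inside the window the PET ratio was 0.115, and with 50 kb on either side 0 members lacked a PDS loop, so the absence at HMOX1 and AKR1B10 holds for the narrower windows only. With representative start sites, an alternative added after seeing the data, the promoter loop ratio was 0.0588. With anchors extended by 5 kb on either side, 31.7% of member mock loops had a PDS counterpart. With PETs divided by the total of each list, the PET ratio was 0.696 (0.560 to 0.865). The share of anchors with an ARE core was 12.6% with TGACTCAGC, and that with a G4 motif 66.1% with spacers of 1 to 12 bases and 100% with runs of 2 G. Against all anchors, G4 motifs were less frequent at the members in the main setting (46.5% and 47.3%) and more frequent with the longer spacers (66.1% and 63.2%), and ARE cores were slightly more frequent over all member anchors (82.7% and 82.4%) and less frequent in anchors of promoter loops (75.4%). Leaving out each gene in turn gave loop ratios of 0.202 to 0.238 and PET ratios of 0.169 to 0.206. PET ratios of single genes moved outside their 95% intervals in 15 of the values recomputed and stayed inside in 16. NFE2L2 was 0.0949 with the gene body alone and 0.0336 with at least 4 PETs, and HMOX1 and KEAP1 were 0.240 and 0.188 with 50 kb flanks. The causes were not tested. A higher minimum or a narrower window also leaves a smaller number of loops. No paired analysis was possible because the lists hold no values per replicate, and leaving out each replicate was not run for the same reason. Single loops rest on few counts: 57.1% of member mock loops and 75% of member PDS loops have 3 PETs, against 59.9% and 71.1% of all loops.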
